A study of Homo sapiens with 12 samples.

Results

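The SRC family tyrosine kinases were followed across RNA sequencing of HL60 cells, an established human promyelocytic leukaemia line. The members were the rows of the deposited table named FGR, LYN, FYN, SRC, YES1, LCK and BLK, 7 of 57820 genes, and all 7 passed the filter on low values that left 23128 genes for testing. Their identifiers in the table are ENSG00000000938.8 for FGR, ENSG00000254087.3 for LYN, ENSG00000010810.13 for FYN, ENSG00000197122.7 for SRC, ENSG00000176105.9 for YES1, ENSG00000182866.12 for LCK and ENSG00000136573.8 for BLK. Cells had been transduced with the empty vector pRRL-EV-puro (EV) or with pRRL-TFEBS211A-puro, which makes the S211A form of the transcription factor TFEB under doxycycline. The groups are vehicle (EV-Veh, TFEB-Veh) and doxycycline at 1 µg/ml (EV-Dox, TFEB-Dox) for both lines, with 3 biologically independent replicates per group. The labels list that dose and 48 h for every sample, vehicle samples included, so the groups were taken from the titles. All groups share the HL60 background and a puromycin vector, and the labels name neither the promoter that drives the transgene nor whether a line is 1 clone.

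SRC family kinases sit on the inner face of the plasma membrane through a lipid anchor. They phosphorylate the tails of immune receptors and integrins, which then recruit SYK and its relatives and a set of adaptor proteins. A tyrosine in the tail of the kinase holds it inactive when phosphorylated by CSK, and phosphatases such as CD45 release it. FGR and LYN are the members best known from myeloid cells, LCK and BLK are known from T and B cells, and SRC, FYN and YES1 are found in most tissues.

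Facts of the whole series bear on how these values are read. The libraries held 4474007 to 22488047 recovered reads, with the lowest number in EV-Dox replicate 3 and the highest in EV-Veh replicate 2. The deposited values are reads divided by 1 factor per library. On that scale the median change of the 7311 genes with a mean of at least 200 was 0.73 on the log2 scale in TFEB-Dox against TFEB-Veh, 1.38 against EV-Dox and 0.06 against EV-Veh, and it was -1.29 in EV-Dox against EV-Veh. Results were therefore also read after scaling the libraries to the median ratio of those genes, called expressed-gene scaling here, which left 25078 genes to test. Changes on the deposited scale should be read relative to these shifts. TFEB itself averaged 124 ± 22.6 normalized reads in TFEB-Veh and 18189 ± 4127 in TFEB-Dox (SD, n = 3), with 79.8 to 196 over the 9 control libraries. MPO, a defining gene of promyelocytes, averaged 109799 ± 68850 in EV-Veh and 5604 ± 973 in TFEB-Dox, and none of the 7 promyelocyte markers was at 0 in all libraries. The summed level of those 7 markers ran from 63858 to 211341 in EV-Veh, from 4551 to 28397.5 in EV-Dox, from 47713 to 93104 in TFEB-Veh and from 7527 to 10614 in TFEB-Dox, and their part in the results below was not tested. Against TFEB-Veh limma called 4 of the 7 lower in TFEB-Dox (MPO, AZU1, PRTN3 and CEBPE) and did not call CD33, CTSG or ELANE. Against EV-Dox it called 0 lower and ELANE higher (2.18, adjusted p = 0.00518), and in EV-Dox against EV-Veh it called all but CD33 lower. Among all tested genes limma called 4.66% lower against TFEB-Veh, 5.37% lower and 27.2% higher against EV-Dox, and 23.3% lower in EV-Dox against EV-Veh.

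FGR, a myeloid kinase that acts downstream of integrins and Fc receptors, showed the largest change among the 7 members in each comparison of TFEB-Dox with another group. Its normalized reads were 226, 260 and 125 in EV-Veh, 327, 174 and 100.5 in EV-Dox, 185, 156 and 125 in TFEB-Veh, and 2179.5, 2707 and 2126 in TFEB-Dox. The 3 TFEB-Dox values lay far above the other 9, which overlapped among the control groups. The group means were 204 ± 70.2 in EV-Veh, 200.3 ± 116 in EV-Dox, 155 ± 30.1 in TFEB-Veh and 2337 ± 321 in TFEB-Dox (SD, n = 3). In this bulk measurement more cells with the transcript and more transcript per cell cannot be told apart. The change was 3.91 on the log2(value + 1) scale against TFEB-Veh (SE 0.45, limma adjusted p = 2.92e-09), 3.69 against EV-Dox (SE 0.45, limma adjusted p = 1.09e-08) and 3.57 against EV-Veh (SE 0.45, limma adjusted p = 2.72e-08). On expressed-gene scaling these changes were 3.17, 2.33 and 3.49, each still called.

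RefSeq lists 2 start sites for FGR on the minus strand of chromosome 1 (GRCh38.p14), and the bases upstream of each are shown because FGR had the largest change. The first stretch lies upstream of the gene, with 92 bases next to the start left off because they fall in an annotated exon. The second lies in an intron of the longer transcripts, directly upstream of the second start. Capitals mark the letters CATGTG (a core sequence of the kind read by TFEB and its relatives) or GAGGAA (a core read by the myeloid factor PU.1), on either strand.
FGR upstream start, chr1:27635278-27635435 minus strand: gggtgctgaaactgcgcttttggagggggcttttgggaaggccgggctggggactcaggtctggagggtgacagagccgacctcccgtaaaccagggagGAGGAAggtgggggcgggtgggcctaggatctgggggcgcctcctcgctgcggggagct
FGR internal start, chr1:27626598-27626847 minus strand: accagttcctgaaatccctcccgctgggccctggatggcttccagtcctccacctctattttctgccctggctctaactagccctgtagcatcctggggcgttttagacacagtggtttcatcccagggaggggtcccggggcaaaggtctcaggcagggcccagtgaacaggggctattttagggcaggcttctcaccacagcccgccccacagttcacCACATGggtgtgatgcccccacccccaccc

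In the 250 bases upstream of each RefSeq start, both strands were searched for these motifs and for CACGTG, the palindromic core of TFEB sites. CACGTG was in neither FGR window, and 6.34% of 35116 human promoter windows of that length hold it. CATGTG was found once, written on the other strand as CACATG, and its first base lies 30 bases before the internal start. Of all windows 9.42% hold CATGTG and 23.6% hold GAGGAA, which was found 2 times before the upstream start, 151 and 9 bases away, the nearer match in the part left off. CACGTG reads the same on both strands, and the motifs do not overlap in these windows. RefSeq starts were also at hand for FYN (4 starts), LCK (2 starts) and YES1 (1 start). None of the windows upstream of them held any of the 3 sequences searched. For LYN, SRC and BLK no start was at hand, so their upstream bases were not searched. These are letter matches and not measured binding.

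SRC, the founding member of the family, rose as well. Its normalized reads were 46.8, 52.6 and 49.4 in EV-Veh, 77.3, 77.2 and 74.4 in EV-Dox, 53.9, 71.5 and 39.7 in TFEB-Veh, and 420.2, 754 and 536 in TFEB-Dox. Every TFEB-Dox library lay above the other 9, and the 3 EV-Dox values lay above the 3 EV-Veh values. The change in TFEB-Dox was 3.35 against TFEB-Veh (SE 0.33, limma adjusted p = 6.12e-11), 2.84 against EV-Dox (SE 0.33, limma adjusted p = 3.8e-09) and 3.46 against EV-Veh (SE 0.33, limma adjusted p = 2.37e-11). On expressed-gene scaling it was 2.61, 1.48 and 3.36, each called.

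YES1, a widely expressed kinase close to SRC in sequence, also rose. Antisense genes overlap it, and without a stated strand setting their reads cannot be told from its own. Its normalized reads were 226, 378 and 210.2 in EV-Veh, 207, 200.5 and 142 in EV-Dox, 171, 179 and 219 in TFEB-Veh, and 458, 791 and 599 in TFEB-Dox. The 3 TFEB-Dox values again lay above the other 9. The change was 1.67 against TFEB-Veh (SE 0.41, limma adjusted p = 0.00212), 1.73 against EV-Dox (SE 0.41, limma adjusted p = 0.00102) and 1.196 against EV-Veh (SE 0.41, limma adjusted p = 0.0331). The difference from TFEB-Veh stayed called on expressed-gene scaling (0.93, limma adjusted p = 0.00329), while that from EV-Dox did not (0.36, limma adjusted p = 0.145). The call against EV-Veh ended with equal upper quartiles and without EV-Veh replicate 1 or 3, EV-Dox replicate 2, TFEB-Veh replicate 2 or TFEB-Dox replicate 2 or 3, with limma adjusted p from 0.0526 to 0.165 when a library was left out.

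**Figure D1:**
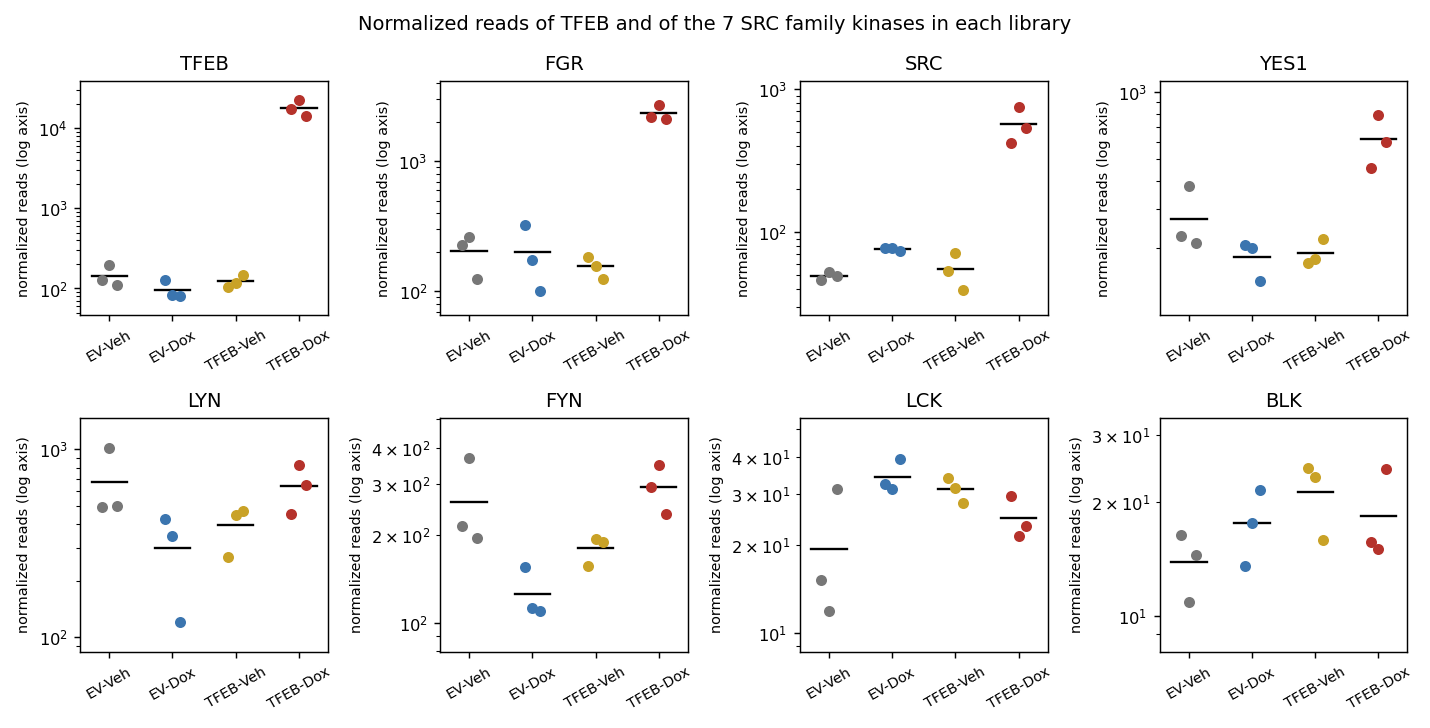
Normalized reads (log axis) of TFEB and the 7 kinases in each of 12 libraries by group; points are libraries and bars are means of 3. FGR, SRC and YES1 have all 3 TFEB-Dox libraries above the other 9, while LYN, FYN, LCK and BLK overlap the control groups.

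In TFEB-Dox against TFEB-Veh 3 of the 7 members were called higher and 0 lower, in limma at an adjusted p of 0.05. Among all 23128 tested genes 17.4% were called higher and 4.66% lower. The median change of the members was 0.70 and that of all tested genes -0.0017. For the genes with a mean of at least 200 it was 0.73. On expressed-gene scaling the same counts were found, where 13.2% of genes were called higher and 18.8% lower. The medians were then -0.046 for the members, -0.74 for all genes and -0.014 for those with a mean of at least 200. In 3 of 7 members the TFEB-Dox libraries all lay above the other 9 and in 0 all below, as they did in 13.6% and 2.95% of tested genes. Against EV-Veh 3 members were called higher and 0 lower, where 12.2% and 8.51% of tested genes were, and with expressed-gene scaling again 3 and 0, where 14.6% and 14.7% were. Against EV-Dox 5 were called higher and 0 lower, where 27.2% and 5.37% of tested genes were, and with expressed-gene scaling 2 and 1, where 13% and 57.4% were. The 2 were FGR and SRC and the 1 was LCK (-1.79, limma adjusted p = 0.0203). On that scaling the median change against EV-Dox was -0.12 for the members and -1.33 for all tested genes. The 3 comparisons share the TFEB-Dox libraries and are not independent of each other.

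LYN, a myeloid and B cell kinase with both activating and inhibitory roles, did not stand apart in TFEB-Dox. Its normalized reads were 494, 1019.5 and 502 in EV-Veh, 427, 347 and 121 in EV-Dox, 268, 449 and 469.8 in TFEB-Veh, and 452, 825 and 648 in TFEB-Dox. The TFEB-Dox values lay inside the range of the controls, and the lowest value was that of EV-Dox replicate 3, the shallowest library. The change was 0.70 against TFEB-Veh (SE 0.49, limma adjusted p = 0.345) and 1.25 against EV-Dox (SE 0.49, limma adjusted p = 0.0465). The latter was called in 14 of 26 settings. On expressed-gene scaling it was -0.12 (limma adjusted p = 0.477), and on the deposited scale its call ended without EV-Veh replicate 1, EV-Dox replicate 2 or 3, TFEB-Veh replicate 2 or 3 or TFEB-Dox replicate 2 or 3, with 0.69 and an adjusted p of 0.268 in limma without EV-Dox replicate 3. With that scaling LYN averaged 459 ± 45.6, 467 ± 78.1, 439 ± 11.5 and 429 ± 67.1 in EV-Veh, EV-Dox, TFEB-Veh and TFEB-Dox (SD, n = 3), and no comparison between groups called it.

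FYN, a kinase of integrin and T cell signalling found in most tissues, was likewise called in TFEB-Dox only against EV-Dox. Its normalized reads were 215, 367 and 195 in EV-Veh, 155, 112 and 109 in EV-Dox, 156, 194 and 189.7 in TFEB-Veh, and 292, 348 and 236 in TFEB-Dox. The TFEB-Dox libraries lay above all of EV-Dox and TFEB-Veh but inside the range of EV-Veh. The change was 0.68 against TFEB-Veh (SE 0.39, limma adjusted p = 0.225) and 1.21 against EV-Dox (SE 0.39, limma adjusted p = 0.0139). On expressed-gene scaling the latter was -0.16 (limma adjusted p = 0.558), and its call on the deposited scale ended without EV-Dox replicate 2 or TFEB-Dox replicate 2 (adjusted p of 0.0675 and 0.0792 in limma).

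LCK and BLK, kinases of the T and B cell receptors, were near the level of lymphoid markers that HL60 cells should lack. LCK ran from 11.9 to 39.5 normalized reads over the 9 control libraries and from 21.5 to 29.3 in TFEB-Dox, and BLK from 10.9 to 24.7 and from 15.1 to 24.5. These values rest on 12 to 44 reads for LCK and 11 to 29 for BLK. The 11 T and B cell markers had a median of 23.4 and a range of 1.22 to 83.3 over the 12 libraries. Their summed level ran from 95.4 to 147 for 6 T cell markers and from 97.9 to 139 for 5 B cell markers in TFEB-Dox, and from 79.3 to 183 and from 147 to 209 in the other groups, and none was at 0 in all libraries. Neither kinase was called in a comparison of TFEB-Dox with another group on the deposited scale. The difference from TFEB-Veh was -0.32 for LCK (SE 0.32, limma adjusted p = 0.516) and -0.21 for BLK (SE 0.35, limma adjusted p = 0.72). On expressed-gene scaling LCK was called lower against EV-Dox, as were 4 of the 6 T cell markers and all 5 B cell markers. Of all tested genes 57.4% were called lower there.

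EV-Dox against EV-Veh shows the members under doxycycline without the transgene, and here the calls changed with the scaling. On the deposited scale 1 of 7 members was called higher and 1 lower in EV-Dox against EV-Veh, where limma called 3.39% of tested genes higher and 23.3% lower. LCK was 0.90 higher (SE 0.32, limma adjusted p = 0.0351), a call that ended without EV-Veh replicate 1 or 2 or EV-Dox replicate 2 or 3 (adjusted p from 0.0628 to 0.225). LYN fell by 1.27 (SE 0.49, limma adjusted p = 0.0499), a call that ended in 9 of the 12 fits that left out a library and in edgeR and DESeq2 (adjusted p of 0.102 and 0.0501). FYN was not called (-0.997, limma adjusted p = 0.0513) and was called lower with the replicate number as a block (limma adjusted p = 0.0375), which made 2 members lower. On expressed-gene scaling 4 of 7 were called higher and 0 lower, where 43.2% and 5.28% of tested genes were. These were FGR (1.16), SRC (1.88), YES1 (0.75) and LCK (2.12). On that scaling the median change was 1.16 for the members and 1.17 for all tested genes. SRC was also called higher by edgeR (1.23, adjusted p = 0.00572) and DESeq2 (0.95, adjusted p = 0.0195) on the recovered reads.

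The uninduced lines were compared in TFEB-Veh against EV-Veh. None of the 7 members was called, and limma called 0 of 23128 genes, with 1754 at an unadjusted p under 0.05, LCK among them. edgeR and DESeq2 also called 0 genes. The changes of the members ran from -0.72 for LYN to 0.76 for LCK. FGR differed by -0.34 (SE 0.45, limma adjusted p = 0.616).

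The interaction of vector and doxycycline, the response of the TFEB line less that of the EV line, was called positive for 5 members and negative for 1, where 29.2% and 6.15% of tested genes were. FGR had the largest, 4.03 (SE 0.64, limma adjusted p = 4.71e-06), followed by SRC with 2.73 (SE 0.47, limma adjusted p = 1.92e-05) and YES1 with 2.20 (SE 0.59, limma adjusted p = 0.00355). LYN had 1.97 (limma adjusted p = 0.0253), FYN 1.68 (limma adjusted p = 0.0162) and LCK -1.22 (limma adjusted p = 0.0315). On expressed-gene scaling only FGR stayed positive among the called members, with 2.01 (SE 0.37, limma adjusted p = 0.000503), and LCK and BLK were called negative, where 10.1% and 58.3% of tested genes were called positive and negative. SRC then had 0.72 (limma adjusted p = 0.22) and YES1 0.18 (limma adjusted p = 0.618). The positive calls numbered 3 without TFEB-Dox replicate 2, and the negative call ended without EV-Veh replicate 1 or 2, EV-Dox replicate 3, TFEB-Veh replicate 1 or 2 or TFEB-Dox replicate 2 or 3.

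**Figure D2:**
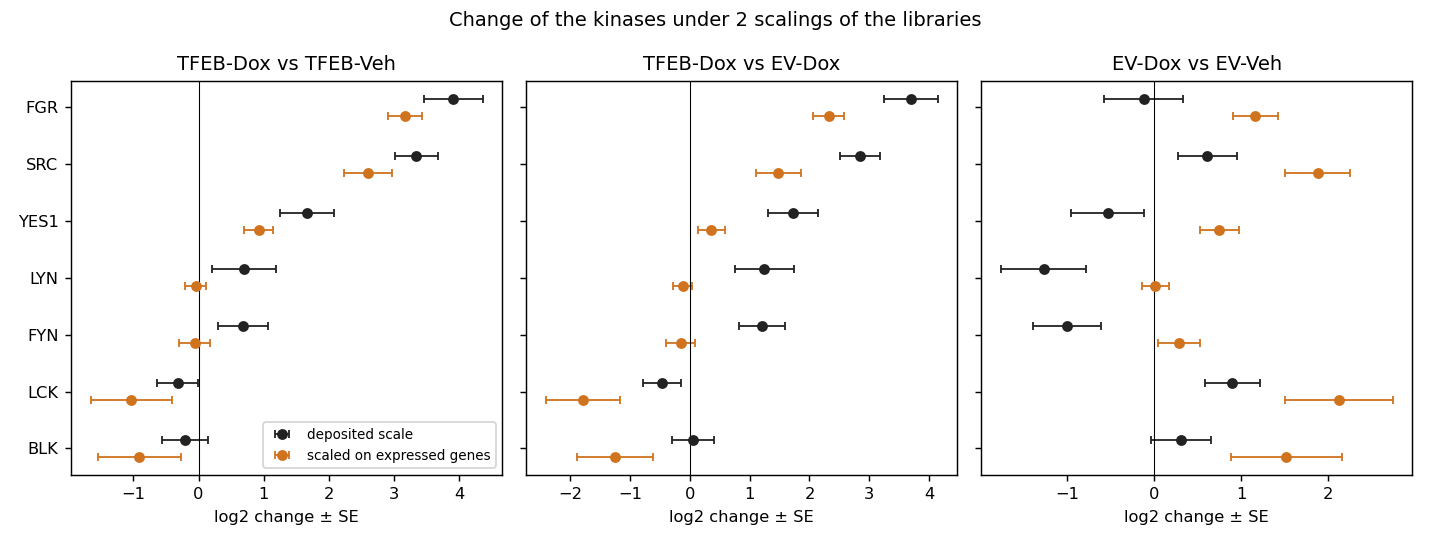
Log2 change with its standard error for the 7 kinases in 3 comparisons, on the deposited scale and after scaling on expressed genes. FGR and SRC stay above 0 in both comparisons of TFEB-Dox, and LYN moves from 1.25 to -0.12 against EV-Dox.

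Of 3 kinases related to the SRC family, 0 were called in TFEB-Dox against TFEB-Veh. Among all tested genes 17.4% were called higher and 4.66% lower. Of the 3 kinases, FRK and PTK6 had the highest means. FRK, a kinase of epithelia, differed by -0.29 (limma adjusted p = 0.562), and PTK6, another epithelial kinase, by 0.28 (limma adjusted p = 0.628).

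Shares within a library do not depend on how libraries are scaled. Reads of the 7 members were divided by the length of their merged exons in GENCODE 29, and each kinase was given as a percentage of the 7. FGR made up 21.8 ± 5.40% in EV-Veh, 29.7 ± 7.11% in EV-Dox, 23.6 ± 6.34% in TFEB-Veh and 65.2 ± 3.47% in TFEB-Dox (SD, n = 3). In the 3 TFEB-Dox libraries FGR took between 62.8% and 69.2%, above every control library, where the highest share was 37.8%. LYN had the highest mean share in EV-Veh, 39.2 ± 4.76%, and in TFEB-Veh, 32.9 ± 7.18%, while in EV-Dox it had 24.8 ± 7.34%, below FGR by less than the spread (SD, n = 3).

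In TFEB-Dox LYN held 9.91 ± 1.61%. From TFEB-Veh to TFEB-Dox the share of FYN went from 12.6 ± 0.46% to 3.82 ± 0.52%, that of YES1 from 19.4 ± 2.20% to 11.5 ± 1.43% and that of SRC from 4.43 ± 1.199% to 8.40 ± 1.13% (SD, n = 3). The shares of a library sum to 100%, so a higher share of 1 kinase lowers the others, and YES1 had a lower share in TFEB-Dox although its normalized reads were higher. Exact two-sided permutation tests of the 7 kinases against TFEB-Veh and EV-Dox gave p = 0.1, the smallest that 3 against 3 allows, or 0.108 adjusted over the 14 tests, for all but SRC against EV-Dox (exact p = 0.5). LCK and BLK held 0.74 ± 0.23% and 0.36 ± 0.13% in TFEB-Dox (SD, n = 3), the smallest of the 7 there.

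**Figure D3:**
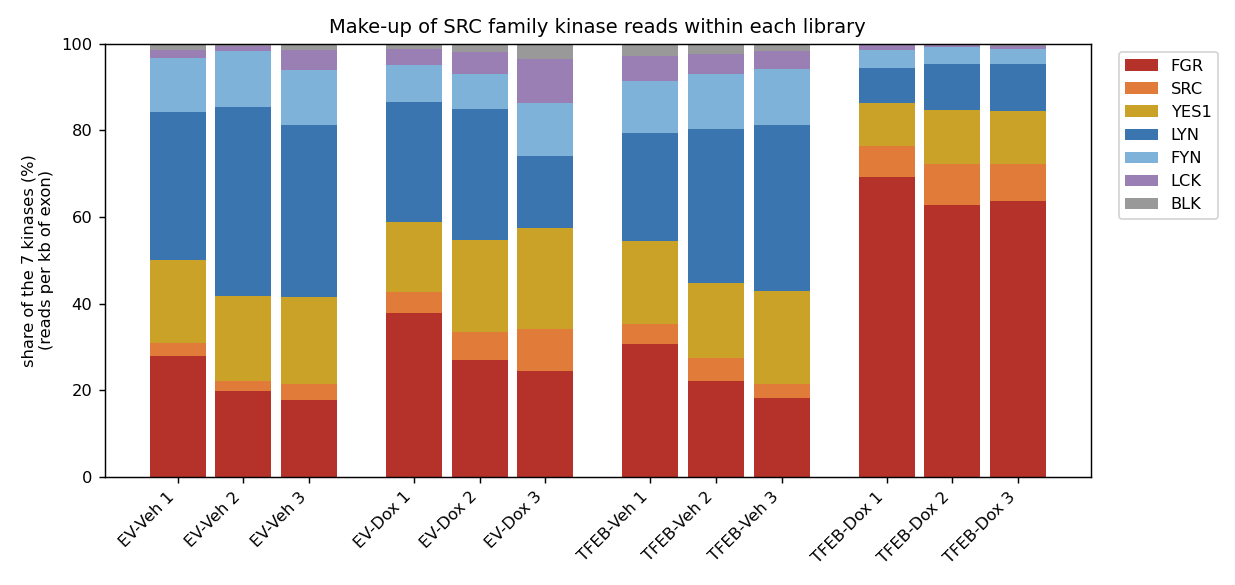
Share (%) of each of the 7 kinases in their summed reads per kb of exon, 1 bar per library. FGR holds 62.8% to 69.2% of the TFEB-Dox bars and at most 37.8% of the 9 control bars.

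Genes with a profile like that of FGR were ranked among 12060 candidates (mean at or above 50) by the root mean square difference of centred log2(value + 1) profiles over the 12 libraries. The nearest were STK40 (a difference of 0.230 log2 units), TSPAN17 (0.246), CPEB4 (0.258), the proton pump subunit ATP6V0A1 (0.278) and the transcription factor FOS (0.282). STK40 averaged 179 in TFEB-Veh and 2619 in TFEB-Dox, ATP6V0A1 277 and 4670.4. Among the members SRC was the closest to FGR, with a difference of 0.558, followed by YES1 with 1.03, FYN with 1.39, LYN with 1.46, BLK with 1.72 and LCK with 1.84.

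Genes that restrain SRC family kinases or, in the case of SOCS1, cytokine signalling were read in TFEB-Dox against TFEB-Veh. Of 10 tested regulators 3 were called higher and 0 lower, in limma, against 17.4% and 4.66% of all tested genes, with a median of 0.11. SOCS1, an inhibitor of cytokine signalling, went from 11.9 ± 3.34 to 175 ± 28.3 normalized reads, and PAG1, the membrane adaptor that brings CSK to the kinases, from 212 ± 20.4 to 1913 ± 311 (SD, n = 3). CBLB, a ubiquitin ligase, went from 224 ± 40.1 to 934 ± 229. These 3 were called higher on each of 5 scalings, and the list had 3 called higher with any 1 library left out. On expressed-gene scaling the other 7 tested regulators were all called lower, where 18.8% of all tested genes were.

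Of 6 phosphatases listed as activating SRC family kinases 2 were called higher and 0 lower, against 17.4% and 4.66% of all tested genes, with a median of 0.56. On expressed-gene scaling 2 were called higher and 2 lower, against 13.2% and 18.8% of all tested genes, with a median of -0.19, and 1 was called lower with TMM scaling, in edgeR and in DESeq2. PTPN11, which encodes SHP2, went from 1560 ± 588 to 5065 ± 1446 and PTPN1 from 350 ± 120.1 to 1039 ± 175 normalized reads (SD, n = 3). Neither was called against EV-Veh (limma adjusted p = 0.246 and 0.308). PTPRC, the CD45 gene, named after its values were seen, differed by -1.08 from TFEB-Veh (limma adjusted p = 0.112). It was called lower against EV-Dox (-1.57, limma adjusted p = 0.0106) and EV-Veh (-1.70, limma adjusted p = 0.00799). On expressed-gene scaling PTPRC was called lower against TFEB-Veh (-1.82, limma adjusted p = 3.18e-08). No member of this list was called higher without TFEB-Veh replicate 1 or without TFEB-Dox replicate 2, and 1 without TFEB-Dox replicate 3. Without EV-Dox replicate 3 limma called 1 of them lower. None of 3 genes of the lipid anchor was called in this comparison. NMT1, which attaches myristate, had 943 ± 210.0 and 1799 ± 511, and the carrier UNC119 had 101 ± 5.39 and 132 ± 23.3.

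Of 12 tested tyrosine kinases that act after SRC family kinases 2 were called higher and 2 lower, against 17.4% and 4.66% of all tested genes, with a median of -0.18. PTK2B, the focal adhesion kinase relative of leukocytes, rose by a log2 value of 2.63 (limma adjusted p = 0.000125, SE 0.52), and ABL2, a kinase that acts on the actin cytoskeleton, by 1.62 (limma adjusted p = 0.00883, SE 0.47). FES, a myeloid kinase, fell by 1.76 (SE 0.50, limma adjusted p = 0.0069). Only 1 was called lower without EV-Veh replicate 1, EV-Dox replicate 2, TFEB-Veh replicate 1, 2 or 3 or TFEB-Dox replicate 1 or 2, and only 1 higher without TFEB-Veh replicate 1 or TFEB-Dox replicate 2. On expressed-gene scaling 2 were called higher and 5 lower, against 13.2% and 18.8% of all tested genes.

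Adaptors and substrates formed the longest list. Of 31 tested, 10 were called higher and 0 lower, against 17.4% and 4.66% of all tested genes, with a median of 0.67. Cortactin (CTTN), an actin-binding substrate of SRC, went from 93.3 ± 16.5 to 6921 ± 3144, and paxillin (PXN), a focal adhesion scaffold, from 100.3 ± 22.0 to 2958 ± 787 normalized reads (SD, n = 3). LCP2, the adaptor SLP-76 of SYK signalling, went from 918 ± 254 to 5722 ± 945. All 3 were called higher on each of 5 scalings. Without the transgene, in EV-Dox against EV-Veh, PXN was 1.47 higher (limma adjusted p = 0.0135), and CTTN and LCP2 were not called. The interaction for PXN was 3.39 (limma adjusted p = 2.38e-05). On expressed-gene scaling the list had 10 called higher and 9 lower, against 13.2% and 18.8% of all tested genes. On the recovered reads edgeR called 6 lower and DESeq2 3. On the deposited scale limma called 3 lower without EV-Dox replicate 3 and 1 without EV-Veh replicate 2 or 3 or TFEB-Dox replicate 1.

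Of 27 tested receptors and signalling chains that use SRC family kinases 9 were called higher and 4 lower, against 17.4% and 4.66% of all tested genes, with a median of 0.20. The integrin ITGAX went from 108 ± 18.4 to 10211 ± 3080.3, the Fc receptor chain FCER1G from 158 ± 39.3 to 1622 ± 456 and the receptor TREM1 from 38.2 ± 5.31 to 309 ± 114 normalized reads (SD, n = 3). ITGAX was also higher in EV-Dox against EV-Veh (1.33, limma adjusted p = 0.0341), where FCER1G and TREM1 were not called. Its interaction was 5.19 (limma adjusted p = 5.24e-08). The 4 that fell, named after their values were seen, were the Fc receptor FCGR1A, the growth factor receptors CSF1R and FLT3 and the inhibitory receptor LILRB1. All 4 were called lower on each of 5 scalings. In EV-Dox against EV-Veh, without the transgene, FCGR1A fell by 2.07 (limma adjusted p = 0.00177) and FLT3 by 1.76 (limma adjusted p = 0.00924), and neither was called in TFEB-Dox against EV-Dox or in the interaction. CSF1R and LILRB1 were not called in EV-Dox against EV-Veh and had interactions of -2.17 and -1.27 (limma adjusted p = 0.00525 and 0.0222). On expressed-gene scaling the list had 8 called higher and 10 lower, against 13.2% and 18.8% of all tested genes, and edgeR on the recovered reads gave 9 and 8. limma called 6 lower on the deposited scale without EV-Dox replicate 1 or 3 and 6 with the replicate block.

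**Figure D4:**
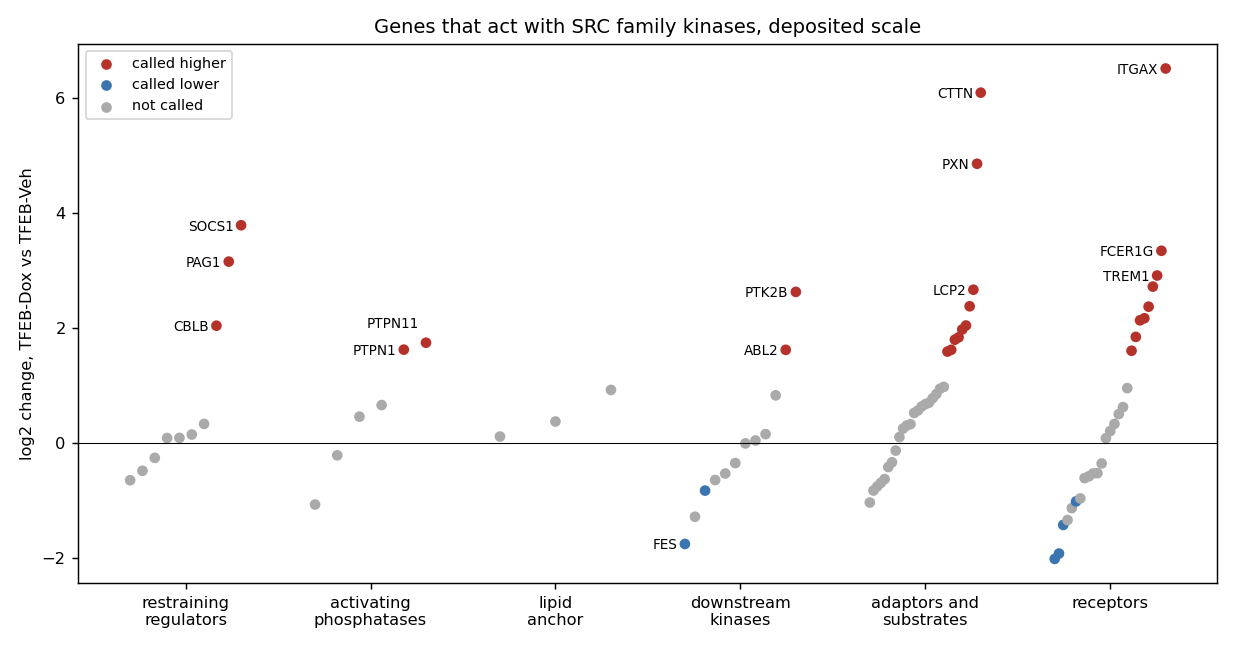
Log2 change in TFEB-Dox against TFEB-Veh of the tested genes of 6 lists around SRC family kinases, on the deposited scale, coloured by the limma call. Each point is a gene, and CTTN, PXN and ITGAX lie above 4.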

How the data were processed

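HL60 RNA was sequenced in 12 samples, 3 in each of 4 groups. The submitters' processing notes name STAR 2.5.3a and HTSeq 0.6.1. Genome build, annotation release and strand setting: not given in the sources used here. Therefore reads of YES1 and other genes with an antisense partner cannot be assigned to a strand. The authors deposited a normalized signal for each gene in each library. Within a library 100% of these values were whole multiples of a single step (tolerance 0.01), which gave the reads back. The step was within 0.01 of 1 in EV-Veh replicate 2 and TFEB-Veh replicate 3.

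The 23128 genes with a mean of at least 10 were tested as log2(value + 1) by limma 3.58.1 (R 4.3.3), using 1 mean per group, a variance trend and Benjamini-Hochberg adjustment over all genes (two-sided, threshold 0.05). edgeR 4.0.16 and DESeq2 1.42.0 were run on the recovered reads as alternatives, beside other pseudocounts, filters, scalings, a replicate block and each library left out. Replicates of a group differed by more than counting error (chi-square over degrees of freedom from 17.5 to 86.7). Same-numbered samples deviated together in EV-Dox and EV-Veh (correlations 0.216, 0.409 and 0.723) and in TFEB-Veh and EV-Veh (0.462, 0.623 and 0.487). Numbers were taken to pair samples where all 3 correlations passed 0.1. In each of the other 4 pairs of groups 2 of 3 did, and the lowest was -0.213. The main fit left this pairing out. In EV-Dox against EV-Veh it called 783 genes higher and 5396 lower, and limma with the replicate block called 1172 and 6755. The fit was tested on simulated data.

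The members and gene lists were chosen with earlier results of these data known. Named genes were TFEB, the members, from each list up to 3 of the called genes by size of change (the 2 most abundant where fewer than 2 were called), and the 5 most like FGR. FCGR1A, CSF1R, FLT3, LILRB1 and PTPRC were named after their values were seen. PECAM1 was listed and has no value here, and LIME1 was under the filter. Promoters are from RefSeq (GRCh38.p14), and exon lengths are from GENCODE 29, whose build may differ from that of the authors. Some listed genes are not reported here and are left out of the counts and shares.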

Additional observations from a re-analysis of the deposited data

Results flagged for a closer look

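The response to doxycycline differed between the TFEB and EV lines for 6 of the 7 kinases in the limma interaction on the deposited scale. The differences, as log2 values of the TFEB line less the EV line, were 4.03 for FGR, 1.97 for LYN, 1.68 for FYN, 2.73 for SRC, 2.20 for YES1 and -1.22 for LCK. The median interaction of the genes with a mean of at least 200 was 2.04 on the same scale. Only FGR and LCK were still called on expressed-gene scaling, with 2.01 and -3.16. The median interaction of all tested genes on that scaling was -1.82, and 58.3% were called negative. The 6 T cell and 5 B cell markers were all called negative there, with medians of -2.53 and -2.87. LCK rests on 12 to 44 reads.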

How the results depend on the processing

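For TFEB-Dox against TFEB-Veh the counts of members called higher (3) and lower (0) were the same under every alternative run, the replicate block included. Against EV-Veh the counts were also 3 and 0, but YES1 was called in 19 of 26 settings, which left only FGR and SRC in the others. FGR and SRC were called higher in all 26 settings of both comparisons and against EV-Dox. For TFEB-Dox against EV-Dox the count called higher was 5. With scaling to equal totals or on expressed genes it was 2, with 1 lower instead of 0. The higher count was below 5 with no filter, equal upper quartiles or the compared groups only. LYN was not called in these settings (limma adjusted p = 0.0624, 0.0527 and 0.0641). With 1 library left out the higher count ran from 3 to 5 and the lower count was 0. In this comparison LYN turned to -0.19 with equal totals and -0.12 on expressed genes, and FYN to -0.22 and -0.16. For EV-Dox against EV-Veh the count called higher was 1. It was 0 with a mean of at least 50, no filter, equal upper quartiles, no variance trend or the compared groups only, 2 with edgeR or DESeq2, and 4 with equal totals or scaling on expressed genes. The count called lower was 1. It was 0 with a pseudocount of 0.5, no filter, TMM, equal totals, scaling on expressed genes, the compared groups only or edgeR, and 2 with a mean of at least 50, equal upper quartiles, no variance trend or the replicate block. Leaving out 1 library gave 0 to 1 higher and 0 to 2 lower. There FGR turned to 1.01 and 1.16 with equal totals and scaling on expressed genes, YES1 to 0.59 and 0.75, and LYN to 0.017 on expressed genes. The median of all tested genes was 1.01 with equal totals and 1.17 with scaling on expressed genes. For the interaction 5 were positive, and 1 with equal totals or scaling on expressed genes; LYN turned to -0.023 and -0.062 and FYN to -0.30 and -0.34. The negative count was 1, and 0 with a mean of at least 50, no filter, equal upper quartiles or no variance trend, and 2 with equal totals or scaling on expressed genes. Leaving out 1 library gave 3 to 5 positive and 0 to 1 negative. The cause of these moves was not tested, except that a mean of at least 50 leaves out LCK and BLK. The replicate block changed no other call of a member. The FGR share in TFEB-Dox, on an alternative chosen after seeing the data, was 52.3% without division by length. LCK and BLK rest on 11 to 44 reads. Over all genes the calls for TFEB-Dox against TFEB-Veh were 4032 higher and 1077 lower, 3682 and 647 with a mean of at least 50, 3035 and 6711 with equal totals, and 3300 and 4708 with scaling on expressed genes.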
